A study of Mus musculus with 6 samples.

Results

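The mitosis genes are 49 protein-coding genes that act from entry into mitosis to the separation of daughter cells, taken as a list of symbols and matched by gene symbol in the deposited tables. All 49 of them were found among 14468 gene identifiers, and all 49 were listed in every library. They were grouped here by role into cyclins and their kinase, mitotic kinases, spindle checkpoint and anaphase-promoting complex, centromere and kinetochore, passenger complex and Cdca genes, condensin and chromosome structure, kinesins, spindle and cytokinesis.

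The cells were LSK cells (Lin-, Sca-1+, c-Kit+), the sorted bone marrow fraction of C57BL/6 mice that holds hematopoietic stem cells and early multipotent progenitors. Total RNA sequencing covered 4 groups with 1 library each, namely Setd2 KO (young KO) and WT (young WT) cells taken 4 weeks after pI-pC, and Setd2 KO (old KO) and WT (old WT) cells taken 8 months after it. pI-pC is a double-stranded RNA given to induce deletion of a conditional allele, and by the labels all 4 groups had received it. The sources used here give neither the driver of the deletion, nor the age of the animals at injection, nor the number of animals behind a library. Setd2 encodes the enzyme that places the trimethyl mark on lysine 36 of histone H3. Each group had a single library, so a difference below describes those libraries, has no replicate spread to be set against, and carries no p-value.

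Mitosis is driven by cyclin B bound to the kinase Cdk1. The kinases Plk1, Aurka and Aurkb then build the spindle and condense the chromosomes with condensin and topoisomerase. Kinetochores join centromeres to microtubules, the spindle checkpoint holds the anaphase-promoting complex until all are attached, and that complex then marks cyclin B and securin for destruction. Most of these genes are transcribed in a wave in G2 and mitosis. Long-term stem cells divide rarely, whereas the multipotent progenitors of the same sort divide more often. In bulk samples fewer cells of a type and less RNA per cell cannot be told apart, and this holds for dividing cells too.

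Values are FPKM, fragments per kilobase of transcript, relative to the fragments of the library, multiplied by a scaling factor per library so that the typical gene is equal in all 4. Differences are given on the log2(scaled FPKM + 1) scale, on which the change of low genes is understated. A difference of 0.32 or more in size is used below as the lower threshold and 1, or 2-fold, as the upper. The files listed 13182 genes in young KO, 13312 in young WT, 13204 in old KO and 13327 in old WT, each at an FPKM of 0.5 or more. The spacing of low values put 1 FPKM over 1 kb at 9.04, 9.58, 9.03 and 8.93 fragments in the same order, with a fragment taken as 2 of the finest steps. Odd multiples of a step made up 1.11% of the values on a step in young KO and 0.862% in young WT, but 58.3% in old KO and 53.8% in old WT. The depth of the old libraries is therefore uncertain, and with 1 step per fragment it would be 18.1 in old KO and 17.9 in old WT. For a transcript of 2 kb the counting error of a difference on the scale used here was 0.18 at both ages at an FPKM of 5 and 0.10 at an FPKM of 20, and in old cells 0.13 and 0.07 with 1 step per fragment. These errors cover counting alone and are larger for shorter transcripts. Setd2 RNA stood at 12.4 in young KO against 14.1 in young WT, and at 15.5 in old KO against 15.3 in old WT, and a gene-level value can include RNA outside a deleted part, so it checks no label. Of the sorting markers, Kit stood at 52.9 in young KO, 61.0 in young WT, 41.1 in old KO and 44.5 in old WT. The Sca-1 gene Ly6a stood at 3.17 in young KO, 4.86 in young WT, 4.18 in old KO and 8.80 in old WT. The libraries of the ages also differed in sex-linked genes. Xist was listed in neither young library and stood at 278.9 in old KO and 291.0 in old WT, whereas Ddx3y, Kdm5d, Uty and Eif2s3y were listed in both young libraries and in neither old one.

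The 49 mitosis genes were slightly higher in KO cells at both ages, and nearly all of them leaned the same way. They were chosen with earlier results of these data known, so their counts describe this list and not mitosis genes in general. Other listed genes of the pathway leaned less, with 82 of 124 higher in young KO and 72 in old KO. In young cells 44 of 49 were higher in KO than in WT, against 50.4% of all 12416 measured genes, and the median difference was 0.24 against 0.00 for all measured genes. In old cells 45 of 49 were higher in KO, against 50.4% of 12486 measured genes, and the median was 0.18 against 0.00. The shift was small for each gene. None of the 49 reached 2-fold at either age, where 1.7% of measured genes in young and 4.32% in old cells did so in either direction. By 0.32 or more 10 of 49 were higher in young KO, against a background of 12.1%, and 5 of 49 in old KO, against 14.8%, the old share being below that background. None was lower by 0.32 or more in KO at either age, where 12.4% of measured genes in young and 15.4% in old cells were. The middle of the list was therefore displaced while its spread was narrow, from -0.12 to 0.62 in young and from -0.25 to 0.57 in old cells. All 49 stood at 3.57 or more in every library, whereas the background includes lower genes. Among genes at 5 or more in at least 1 library of a comparison, fewer passed 0.32. In young KO 9.54% were higher and 9.17% lower, and in old KO 14.1% and 11.8%.

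The young and old comparisons share no library. Of the 49 genes, 41 were higher in KO at both ages, against 26.2% of the genes measured in both comparisons, 1 was lower at both, 3 were higher at the young age alone, and 4 at the old age alone. The young and the old difference of a gene were only loosely related, with a Spearman rank correlation of 0.24 and a Pearson correlation of 0.22 across the 49 genes, which come from the same 4 libraries and are not independent. In 20 of 49 genes both KO values lay above both WT values, against 11.5% of measured genes, and in none did both lie below. The margin was narrow for some of the 20, such as Smc2, at 31.47 in young KO against 31.45 in old WT. In the unscaled FPKM Smc2, Ccnb2, Bub3 and Prc1 did not have this order. The summed scaled FPKM of the 49 genes was 999.6 in young KO against 858.1 in young WT, and 1106 in old KO against 985.2 in old WT. Young WT held the lowest of the 4 values for 32 genes and old KO the highest for 29, and the same shares over all measured genes were not counted. Both counts rest on scaled values, for which young WT was multiplied by 0.940 and each other library by 1.02. When the FPKM were left unscaled the median of all measured genes was -0.10 in the young comparison, and that of the mitosis genes 0.14 with 38 of 49 above 0. With scaling on housekeeping genes the old median was 0.09 with 36 of 49 above 0.

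**Figure D1:**
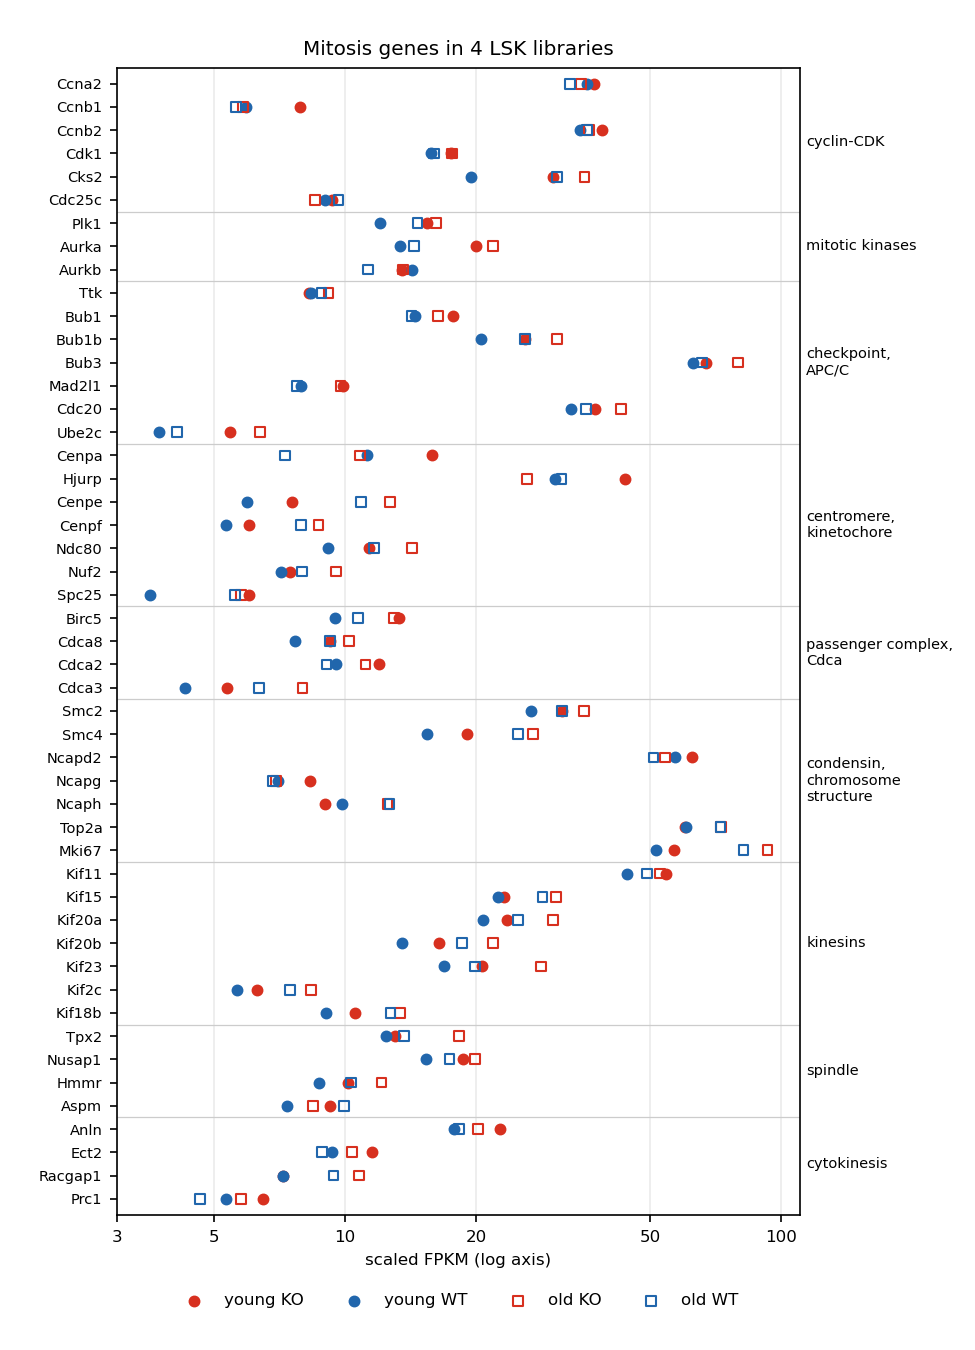
Scaled FPKM of each of the 49 mitosis genes (rows, by role) in the young KO, young WT, old KO and old WT libraries, on a log axis, with 1 point per library. Levels run from 3.57 for Spc25 in young WT to 93.0 for Mki67 in old KO, and within most rows the KO point lies right of the WT point of the same age.

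A feature that many of these genes have in common is the promoter. The sources used here do not say whether it played a part in choosing them. Genes of G2 and mitosis are known for a short element near the transcript start, the cell cycle genes homology region (CHR), which is bound by the MuvB core of the DREAM repressor in resting cells and of the B-Myb and FoxM1 activators in G2. Upstream CCAAT boxes, bound by NF-Y, commonly go with it. Promoter windows of RefSeq (GRCm38.p6), which run from 250 bases before to 50 bases after a transcript start, were matched by symbol for 42 of the 49 genes, in 45 windows. The letters TTTGAA, on either strand, were found in 36 of these 45 windows (80.0%), against 12.1% of the 11014 windows of genes measured in a KO comparison and 17.9% of all 32851 windows. CCAAT, on either strand, was found in 35 of 45 (77.8%), against 38.0% and 37.4%, and both motifs in 31 of 45 (68.9%), against 4.92% and 6.95%. Matches of the 2 motifs can share at most 1 base. Among other genes of the mitosis pathway, the list most like it, TTTGAA was found in 40 of 113 windows (35.4%), CCAAT in 64 (56.6%) and both in 29 (25.7%), so the motifs are shared with the wider pathway. Of 45 DNA replication genes used for comparison, 35 had a window, and 4 of those 35 genes (11.4%) held TTTGAA while 22 (62.9%) held CCAAT.

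The 100 bases before the start are shown for 6 genes with a TTTGAA match in the last 50 of them, and for Cks2, a gene with a large young difference and no such match in its window. Each is written 5′ to 3′ on the strand of the gene, and capitals mark TTTGAA and CCAAT or their reverse complements TTCAAA and ATTGG. Ube2c (chr2:164769829-164769928, plus strand) and Cdc20 (chr4:118437344-118437443, minus strand) were higher in KO at both ages, as was Cdk1 (chr10:69352913-69353012, minus strand). Kif11 (chr19:37376282-37376381, plus strand) and Ncapg (chr5:45669825-45669924, plus strand) had the larger difference in young cells, and Top2a (chr11:99024190-99024289, minus strand) differed at neither age by more than 0.01. Cks2 lies at chr13:51645132-51645231 on the plus strand.
Ube2c: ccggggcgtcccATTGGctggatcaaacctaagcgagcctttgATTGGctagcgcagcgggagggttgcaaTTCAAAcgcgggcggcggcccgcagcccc
Cdc20: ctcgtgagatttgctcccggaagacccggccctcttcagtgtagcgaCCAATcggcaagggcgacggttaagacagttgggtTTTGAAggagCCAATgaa
Cdk1: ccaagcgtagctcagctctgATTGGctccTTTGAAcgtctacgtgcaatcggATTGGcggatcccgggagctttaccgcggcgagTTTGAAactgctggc
Kif11: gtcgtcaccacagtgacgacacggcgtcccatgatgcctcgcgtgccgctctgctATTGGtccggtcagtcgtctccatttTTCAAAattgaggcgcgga
Ncapg: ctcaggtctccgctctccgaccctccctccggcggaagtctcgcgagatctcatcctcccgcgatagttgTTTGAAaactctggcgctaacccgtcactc
Top2a: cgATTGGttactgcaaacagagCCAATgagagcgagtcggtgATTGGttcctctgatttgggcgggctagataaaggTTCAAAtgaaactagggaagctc
Cks2: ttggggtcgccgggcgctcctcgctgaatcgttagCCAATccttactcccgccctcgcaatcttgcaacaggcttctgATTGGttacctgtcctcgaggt

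Counting the first transcribed base as 1 and the base before it as -1, the TTTGAA match of Cdc20 began at -18, that of Ncapg at -30, that of Kif11 at -19 and that of Ube2c at -29, and Cdk1 held matches at -71 and -15. Over 1 window per gene, 32 of 42 TTTGAA matches began within 50 bases of the start, 9 before it and 23 after it, with a median position of 3.5. CCAAT matches lay further upstream, with 55 of 76 between -120 and -1 and a median position of -69.5. Of the 42 genes, 33 held TTTGAA, and 30 of these 33 were higher in young KO with a median of 0.24. The 9 without it (Birc5, Bub1, Ccnb1, Cenpe, Cks2, Mad2l1, Ncaph, Nuf2 and Nusap1) were higher in 8 of 9 cases with a median of 0.29. In old cells 31 of the 33 and 8 of the 9 were higher in KO, with medians of 0.14 and 0.20. Most genes with and most genes without these exact letters in the window were higher in KO. Whether the motif goes with the differences was not tested, and a match is a description of the letters, not a site or a cause.

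**Figure D2:**
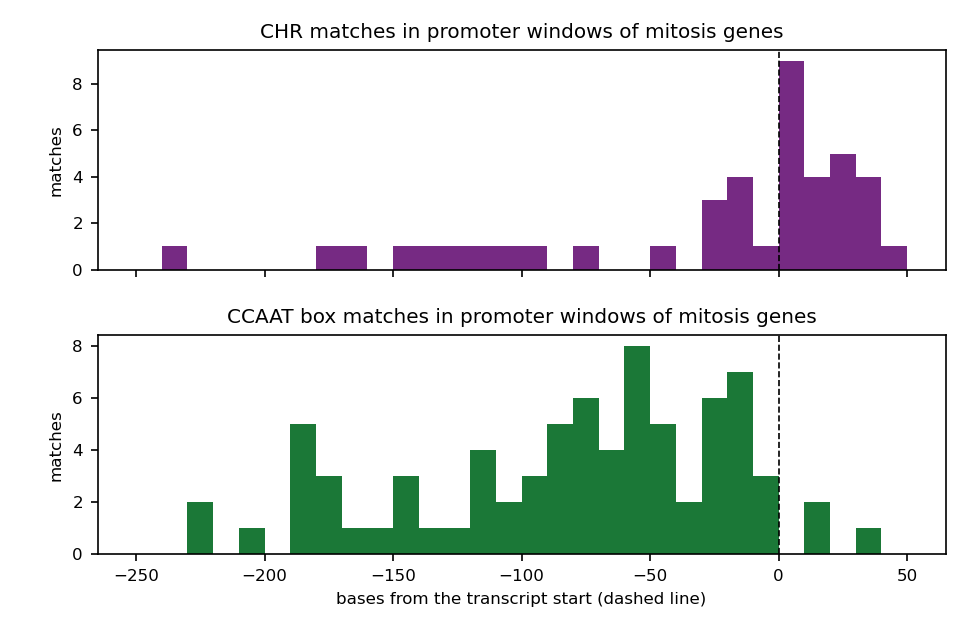
Number of TTTGAA (CHR, upper panel) and CCAAT (lower panel) matches on either strand in bins of 10 bases, by distance from the transcript start, over 1 promoter window for each of 42 mitosis genes. TTTGAA matches crowd around the start, with 32 of 42 within 50 bases of it, and CCAAT matches lie mostly upstream.

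Among cyclins and their kinase, the small subunit Cks2 stood out in young cells. The core kinase Cdk1 differed less, by 0.15 in young and 0.13 in old cells, with both KO values above both WT values. Cks2 (ENSMUSG00000062248, chromosome 13, 51645232 to 51650660, mm10), the adaptor that docks Cdk1 on phosphorylated substrates, stood at 30.0 in young KO against 19.4 in young WT and at 35.4 in old KO against 30.6 in old WT. Young WT was the low library, with the other 3 close together, and the differences were 0.60 in young and 0.21 in old cells. Ccnb1, the main mitotic cyclin, stood at 7.86 in young KO against 5.93 in young WT and at 5.84 in old KO against 5.63 in old WT, so that young KO alone was high. Ccnb2, its close relative, had 38.7 in young KO against 34.6 in young WT and 36.2 in old KO against 35.8 in old WT, and Cdk1 itself 17.5 in young KO against 15.7 in young WT and 17.6 in old KO against 16.0 in old WT. Ccna2, the cyclin of S and G2 phase, was nearly level at 37.2 in young KO and 35.8 in young WT, and at 34.7 in old KO and 32.7 in old WT. The Cdk1-activating phosphatase gene Cdc25c differed by 0.05 in young and by -0.16 in old cells. All 6 genes were higher in young KO and 5 of 6 in old KO, with medians of 0.15 and 0.06.

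Among the mitotic kinases, Aurka differed alike at both ages. Aurka (ENSMUSG00000027496, chromosome 2, 172356190 to 172370535), the Aurora kinase of centrosomes and spindle poles, stood at 20 in young KO against 13.3 in young WT and at 21.8 in old KO against 14.4 in old WT. Both KO libraries lay above both WT libraries by a clear gap, 1.5-fold in young and 1.52-fold in old cells. Plk1, the Polo kinase of mitotic entry and centrosome maturation, stood at 15.4 in young KO against 12.03 in young WT and at 16.1 in old KO against 14.7 in old WT. Aurkb, the Aurora kinase of the chromosomal passenger complex, stood at 13.5 in young KO against 14.2 in young WT and at 13.6 in old KO against 11.3 in old WT. The low value of Aurkb was thus old WT, and its difference was -0.07 in young and 0.24 in old cells.

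Genes of the spindle checkpoint and of its target, the anaphase-promoting complex, were higher in KO in 6 of 7 cases in young and in 7 of 7 in old cells, with medians of 0.27 and 0.26. Ube2c (chromosome 2, 164769898 to 164778822), the ubiquitin-conjugating enzyme that works with that complex, stood at 5.44 in young KO against 3.75 in young WT and at 6.37 in old KO against 4.12 in old WT. Both KO values lay above both WT values, with differences of 0.44 and 0.52, but the gene is low and its counting error is among the larger ones. Cdc20, which activates the complex in mitosis, stood at 37.4 in young KO against 33.0 in young WT and at 42.9 in old KO against 35.6 in old WT. Mad2l1, the checkpoint protein that captures Cdc20, stood at 9.90 in young KO against 7.92 in young WT and at 9.76 in old KO against 7.74 in old WT, almost the same values at both ages. Bub1b, which encodes BubR1, had 25.8 in young KO against 20.5 in young WT and 30.6 in old KO against 25.8 in old WT, and the checkpoint kinase Bub1 17.7 in young KO against 14.5 in young WT and 16.4 in old KO against 14.2 in old WT. Bub3, their shared partner, was the most abundant checkpoint gene at 67.3 in young KO, 62.9 in young WT, 79.5 in old KO and 65.9 in old WT. Ttk, which encodes the Mps1 kinase at the top of the checkpoint, differed least, by -0.01 in young and 0.05 in old cells.

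Centromere and kinetochore genes held both the largest young difference and the clearest disagreement between ages. Cenpa (chromosome 5, 30666777 to 30674830), the histone H3 variant that defines the centromere, stood at 15.8 in young KO against 11.2 in young WT and at 10.8 in old KO against 7.28 in old WT, a difference of 0.46 in young and 0.51 in old cells. Hjurp (chromosome 1, 88262471 to 88277633), the chaperone that loads Cenpa, stood at 43.8 in young KO against 30.2 in young WT and at 26.1 in old KO against 31.3 in old WT. The WT libraries were close to each other, young KO was high and old KO low, so the loader and its cargo leaned the same way in young KO and opposite ways in old KO.

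The Ndc80 complex, which grips the microtubule, was uneven. Spc25 (chromosome 2, 69193895 to 69206194), a subunit of its inner end, stood at 6.03 in young KO against 3.57 in young WT and at 5.76 in old KO against 5.60 in old WT, so that young WT was the low value and the young difference, 0.62, was the largest of the 49. Ndc80, of its outer end, had 11.3 in young KO against 9.14 in young WT and 14.3 in old KO against 11.6 in old WT, differences of 0.28 and 0.27. Its partner Nuf2 had 7.47 in young KO against 7.14 in young WT and 9.53 in old KO against 7.95 in old WT. Spc24, the partner of Spc25 and one of the other pathway genes, stood at 16.4 in young KO against 12.7 in young WT and at 14.9 in old KO against 16.7 in old WT. The large kinetochore proteins were closer to the middle of the list. Cenpe, the kinetochore kinesin, had 7.56 in young KO against 5.95 in young WT and 12.7 in old KO against 10.9 in old WT, and Cenpf, an outer kinetochore protein of G2 and mitosis, 6.04 in young KO against 5.33 in young WT and 8.69 in old KO against 7.92 in old WT.

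Genes of the chromosomal passenger complex, in which Aurkb is held by survivin (Birc5), borealin (Cdca8) and Incenp, were not alike. Birc5 stood at 13.3 in young KO against 9.46 in young WT and at 12.9 in old KO against 10.7 in old WT, with both KO values above both WT values. Cdca8 had 9.25 in young KO against 7.68 in young WT and 10.2 in old KO against 9.24 in old WT. Aurkb is given above, and Incenp, one of the other pathway genes, stood at 38.9 in young KO against 38.7 in young WT and at 59.3 in old KO against 44.2 in old WT. Cdca2, which encodes the phosphatase-targeting protein Repo-Man, had 11.96 in young KO against 9.53 in young WT and 11.1 in old KO against 9.07 in old WT. Cdca3, a G2 gene linked to degradation of the Wee1 kinase, had 5.36 in young KO against 4.29 in young WT and 7.98 in old KO against 6.36 in old WT, a like difference of 0.27 and 0.29 at levels that were higher in old cells.

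Condensin and chromosome structure genes differed little between genotypes, with medians of 0.13 in young and 0.09 in old cells and no gene at 0.32. Top2a, the topoisomerase that untangles sister chromatids, stood at 60.2 in young KO against 60.5 in young WT and at 72.7 in old KO against 72.5 in old WT, so that genotypes were level while the ages were apart. Mki67, which encodes the proliferation antigen Ki-67, had 56.6 in young KO against 51.6 in young WT and 93.0 in old KO against 81.8 in old WT. Within the condensin I complex the core ATPases Smc2, at 31.5 in young KO against 26.6 in young WT and 35.3 in old KO against 31.5 in old WT, and Smc4, at 19.0 in young KO against 15.4 in young WT and 26.9 in old KO against 24.9 in old WT, were higher in KO at both ages. Its other subunits were less alike. Ncapd2 had 62.4 in young KO against 57.1 in young WT and 54.0 in old KO against 50.9 in old WT, and Ncapg 8.32 in young KO against 7.01 in young WT and 6.94 in old KO against 6.83 in old WT. Ncaph, the kleisin subunit, stood at 8.97 in young KO against 9.84 in young WT and at 12.5 in old KO against 12.6 in old WT and was the only 1 of the 49 genes below 0 at both ages.

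All 7 kinesin genes were higher in KO at both ages, with medians of 0.20 in young and 0.14 in old cells. Kif23, the motor of centralspindlin at the midzone, stood at 20.6 in young KO against 16.9 in young WT and at 28.2 in old KO against 19.9 in old WT, so that old KO was high and both KO values lay above both WT values. Its obligate partner Racgap1 stood at 7.19 in young KO against 7.20 in young WT and at 10.8 in old KO against 9.40 in old WT, level in young cells. Kif11, the kinesin that pushes spindle poles apart, was the most abundant motor at 54.3 in young KO, 44.2 in young WT, 52.7 in old KO and 49.1 in old WT. Kif15, which backs it up, had 23.1 in young KO against 22.4 in young WT and 30.5 in old KO against 28.3 in old WT. Kif20a, needed for cytokinesis, differed by 0.18 and 0.26, its relative Kif20b by 0.26 and 0.22, the microtubule depolymerase Kif2c by 0.13 and 0.14, and Kif18b, which controls astral microtubules, by 0.20 and 0.07 in young and old cells.

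Spindle and cytokinesis genes leaned to KO as well, with Aspm as the exception in old cells. Tpx2, the microtubule nucleator that activates Aurka, stood at 13.03 in young KO against 12.4 in young WT and at 18.2 in old KO against 13.7 in old WT, and old KO alone was high. Aspm, a protein of spindle poles, stood at 9.22 in young KO against 7.35 in young WT and at 8.43 in old KO against 9.94 in old WT. Nusap1, which bundles microtubules near chromosomes, differed by 0.27 and 0.19, and Hmmr, a spindle protein that is also a hyaluronan receptor, by 0.20 and 0.21 in young and old cells. Anln, the scaffold of the contractile ring, stood at 22.6 in young KO against 17.7 in young WT and at 20.2 in old KO against 18.2 in old WT. Ect2, which positions the ring, differed by 0.28 and 0.20, and Prc1, the bundler of midzone microtubules, by 0.24 and 0.26. Of the 12 genes at 0.32 or more in either comparison, Aurka, Ube2c and Cenpa were the 3 that reached it at both ages.

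**Figure D3:**
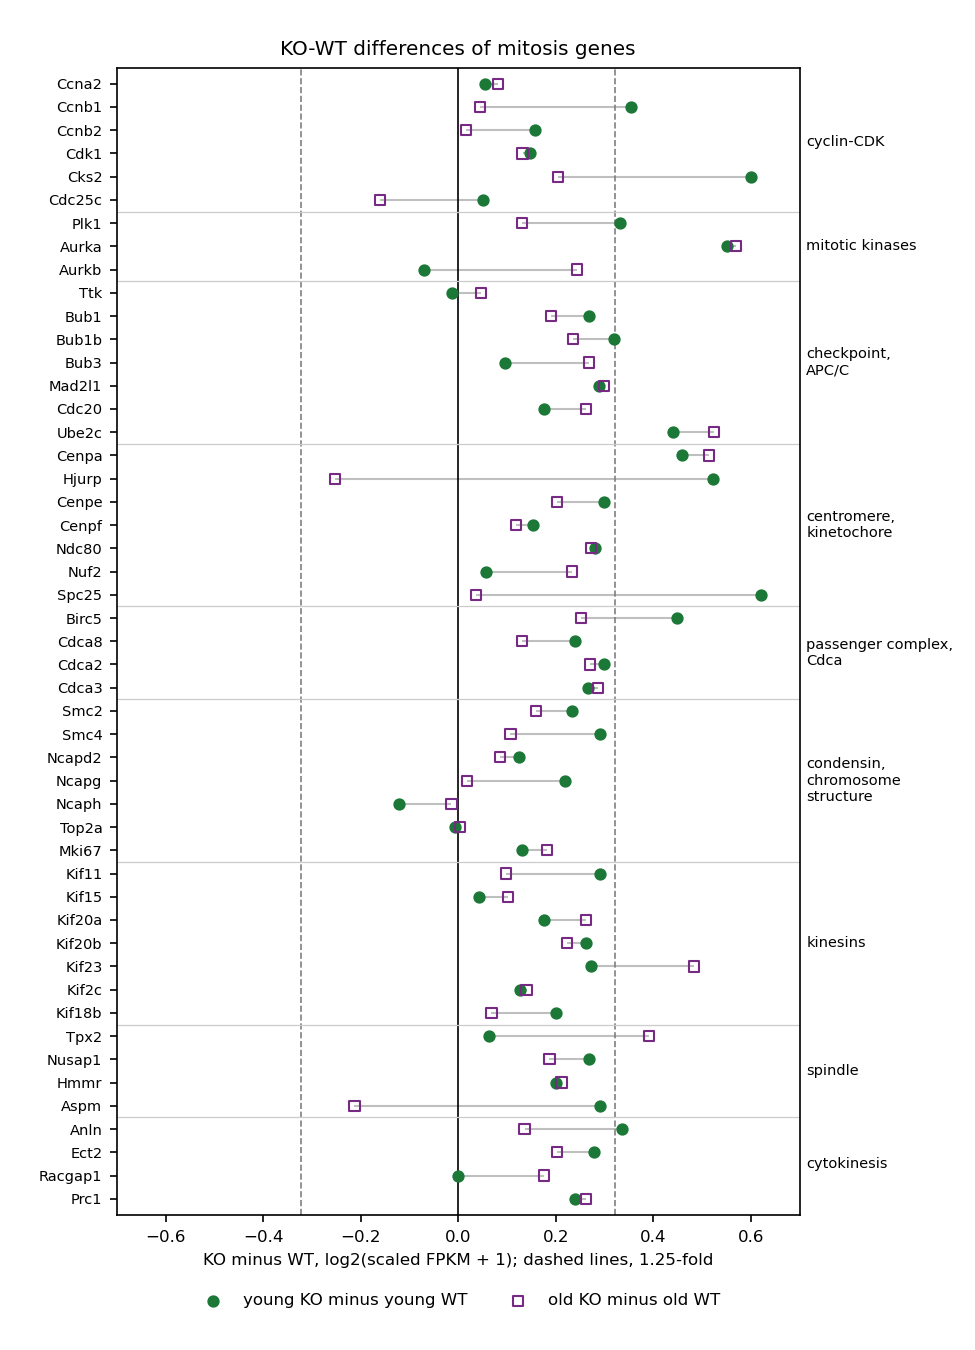
KO minus WT difference of each mitosis gene on the log2(scaled FPKM + 1) scale, by role, in young cells (filled circles) and old cells (open squares), with dashed lines at 0.32 and -0.32. Most points lie between 0 and the right dashed line, Aurka, Ube2c and Cenpa lie beyond it at both ages, and Hjurp and Aspm lie on opposite sides of 0.

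The other genes of mitosis leaned less to KO. Of 125 further pathway entries, 124 were listed (Ccnb3 was not), of which 82 were higher in young KO with a median of 0.08, and 72 in old KO with a median of 0.02. By 0.32 or more 16 of these 124 were higher and 8 lower in young KO, against 12.1% and 12.4% of measured genes, and 6 were higher and 7 lower in old KO, against 14.8% and 15.4%. By share above 0 the list with most genes higher in KO at both ages was cohesin, shugoshin and condensin II, with 15 of 18 higher in young KO and 14 of 18 in old KO, though its medians were 0.08 and 0.11. Subunits of the anaphase-promoting complex and exit genes split evenly in young cells, with 9 of 18 higher, and 11 of 18 were higher in old KO. Other kinetochore genes were higher in young KO in 23 of 31 cases but in old KO in 13 of 31.

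Only 2 of these pathway genes passed 2-fold. Mis12, of the complex that anchors Ndc80 to the centromere, stood at 4.35 in young KO against 2.21 in young WT and at 5.39 in old KO against 2.01 in old WT, and reached 2-fold in old cells. Ska2, a subunit of the Ska complex at kinetochore microtubules, stood at 2.03 in young KO against 5.84 in young WT and at 4.55 in old KO against 5.65 in old WT, and was 2-fold lower in young KO. Below 2-fold, the largest differences of each list ran in both directions.

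Among entry regulators Cdc25b, a phosphatase that starts Cdk1 activation, had 8.57 in young KO against 5.16 in young WT and 7.35 in old KO against 5.52 in old WT. Ccnf, a cyclin-like ubiquitin ligase subunit, differed by 0.35 in young and 0.30 in old cells, and Bora, an activator of Plk1, by 0.03 and 0.41. Lower in KO at both ages were Arpp19, an inhibitor of the phosphatase that opposes Cdk1, at 2.21 in young KO against 3.45 in young WT and 0.709 in old KO against 1.46 in old WT, and Plk4, the kinase of centriole duplication, by differences of -0.24 and -0.26. Among genes of the anaphase-promoting complex and exit, Ube2s, which extends ubiquitin chains, had 8.27 in young KO against 7.25 in young WT and 13.5 in old KO against 8.33 in old WT. Espl1, which encodes separase, differed by 0.36 in young and 0.26 in old cells, and Fzr1, the Cdh1 activator, by 0.46 and 0.12. Fbxo5, the Emi1 inhibitor of the complex, differed by 0.47 and -0.04, and Pttg1, which encodes securin, by -0.50 and 0.02. The subunit genes Anapc15, Anapc5 and Anapc7 differed in young cells by -0.29, 0.22 and 0.19 and in old cells by -0.02, -0.07 and -0.08.

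Among other kinetochore genes the centromere-bound Cenph had 10.8 in young KO against 12.3 in young WT and 7.94 in old KO against 11.6 in old WT, and Itgb3bp differed by -0.47 in young and -0.28 in old cells. Casc5, the scaffold that recruits Bub1, differed by 0.49 and -0.48, and Ska1, a partner of Ska2, by 0.27 and 0.25. Among cohesin, shugoshin and condensin II genes Gsg2, the haspin kinase, differed by 0.53 in young and 0.12 in old cells, Cdca5, which encodes sororin, by 0.36 and 0.26, and Sgol2a, a shugoshin, by 0.24 and 0.31. The cohesin subunits Smc1a and Stag2 differed in young cells by -0.09 and -0.05 and in old cells by -0.06 and 0.14. Wapl, which releases cohesin, differed by 0.22 and -0.17, and Ncapg2, of condensin II, by 0.12 and -0.14. Among other kinesin, spindle and cytokinesis genes Gtse1, a microtubule-binding G2 gene, had 15.4 in young KO against 11.8 in young WT and 16.0 in old KO against 11.4 in old WT. The kinesin genes Kifc1 and Kif14 differed in young cells by 0.33 and 0.22 and in old cells by 0.20 and 0.30. Lower in KO at both ages were Depdc1a, by -0.33 and -0.08, Fam64a, by -0.28 and -0.15, and Iqgap3, by -0.04 and -0.18, while Kpna2, an importin, differed by 0.05 and -0.37.

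Genes of the regulator families named with the promoters, and of E2F and pocket proteins, were mixed. Of 19 genes of MuvB, B-Myb, FoxM1 and the E2F and pocket protein families, 14 were higher in young KO and 8 in old KO, with medians of 0.12 and -0.01. Foxm1, the activator of the G2 genes, stood at 7.58 in young KO against 6.17 in young WT and at 5.89 in old KO against 8.10 in old WT. Mybl2, which encodes B-Myb, had 14.9 in young KO against 15.7 in young WT and 13.2 in old KO against 15.3 in old WT, lower in KO at both ages by less than 0.32. Lin54, the MuvB subunit that reads the CHR, had 2.80 in young KO against 3.41 in young WT and 2.60 in old KO against 2.29 in old WT. Tfdp2, a dimer partner of E2F factors, had the largest difference in size of this group at both ages, at 3.82 in young KO against 6.64 in young WT and at 1.46 in old KO against 2.89 in old WT. E2f5 differed by -0.34 in young and -0.02 in old cells, Rbl2, the p130 pocket protein, by 0.23 and -0.14, and Rbbp4, a MuvB subunit, by 0.12 and 0.11.

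DNA replication genes, which are used in the S phase before mitosis, were not displaced upward with the mitosis genes. Of 45 such genes, 24 were higher in young KO with a median of 0.01, and 14 in old KO with a median of -0.08. Ccne1, the cyclin of S phase entry, stood at 6.69 in young KO against 3.11 in young WT and at 4.55 in old KO against 6.46 in old WT. Fen1, a nuclease of lagging strand synthesis, stood at 7.69 in young KO against 8.91 in young WT and at 7.13 in old KO against 18.7 in old WT, so that old WT was the high library. Rrm2, a subunit of the enzyme that makes deoxynucleotides, was higher in KO at both ages, at 51.5 in young KO against 39.6 in young WT and 47.6 in old KO against 35.9 in old WT. Rpa1, of the single-strand binding complex, had 13.3 in young KO against 13.4 in young WT and 13.1 in old KO against 21.9 in old WT. Ccne2 differed by 0.48 in young and 0.02 in old cells, Tipin, of the replication fork, by -0.36 and -0.26, Gins1 by -0.44 and -0.01 and Gins2, of the same helicase complex, by -0.16 and 0.39. Whether the mitosis and replication lists differ from each other was not tested.

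**Figure D4:**
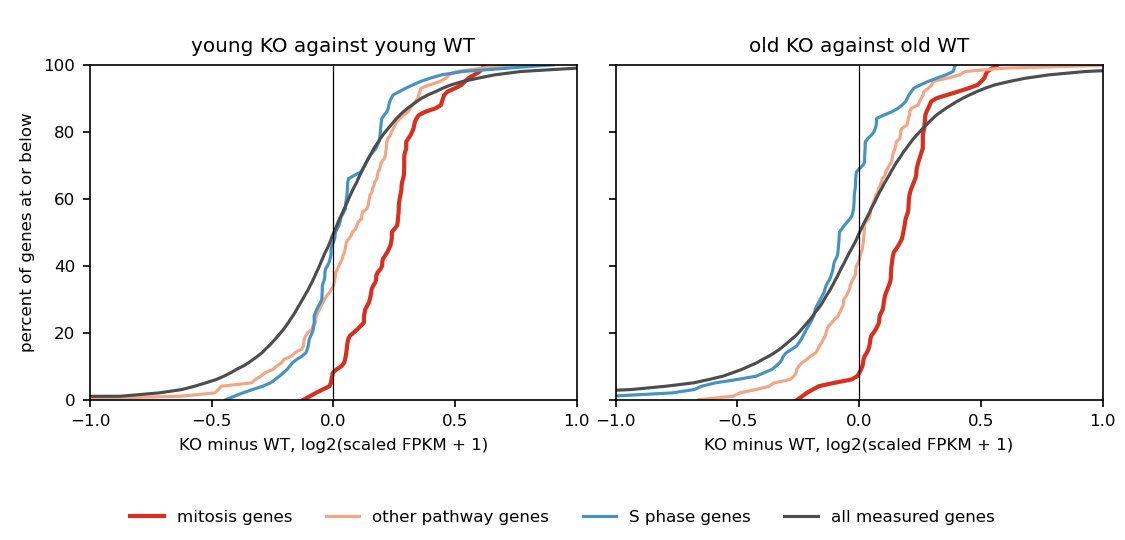
Percent of genes (vertical axis) at or below a given KO minus WT difference on the log2(scaled FPKM + 1) scale, for 49 mitosis genes, 124 other pathway genes, 45 S phase genes and all measured genes, in young (left) and old cells (right). The curve of the mitosis genes lies right of that of all measured genes over most of its range, with medians of 0.24 and 0.18, and its upper end stays within that of all genes.

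Markers of blood lineages differed between genotypes in these libraries. By median some lists, among them the erythroid and the granulocyte-monocyte ones, had different directions at the 2 ages. The lists of the LSK sort and of megakaryocytes were by median lower in KO at both. Of 23 erythroid genes, 23 were higher in young KO, with a median of 0.69 and a summed scaled FPKM of 960.1 in young KO against 461.6 in young WT, whereas 8 of 23 were higher in old KO, with a median of -0.34 and sums of 322.1 in old KO against 440.7 in old WT. Hbb-bs, a beta-globin gene, was higher in KO at both ages, at 219.7 in young KO against 46.8 in young WT and 28.1 in old KO against 12.2 in old WT, and Car1, a carbonic anhydrase gene, had 146.0 in young KO against 72.5 in young WT and 52.6 in old KO against 123.1 in old WT. Granulocyte-monocyte genes went the other way. Of 24, 7 of the 19 measured were higher in young KO, with sums of 985.7 in young KO against 1092 in young WT, and 23 of 24 in old KO, with sums of 2779 in old KO against 1421 in old WT. Camp, Ltf, Ngp and S100a9 were listed in neither young library. Chil3, a gene of neutrophil and macrophage precursors, had 3.64 in young KO against 1.28 in young WT and 39.5 in old KO against 2.64 in old WT. All 12 plasma cell genes were lower in old KO, with sums of 248.8 in old KO against 2241 in old WT, and stood at 87.5 in young KO against 70.5 in young WT, with Prdm1, Tnfrsf17 and Ccr10 listed in neither young library. Jchain, the joining chain of secreted immunoglobulin, had 19.7 in young KO against 13.03 in young WT and 141.3 in old KO against 1891 in old WT.

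Of 9 genes of the LSK sort, 3 were higher in young KO and 2 in old KO, with medians of -0.18 and -0.32. Hlf, a stem cell transcription factor, stood at 14.1 in young KO against 11.1 in young WT and at 6.20 in old KO against 14.7 in old WT. Of the megakaryocyte genes 4 of 9 measured were higher in young KO and 0 of 7 in old KO, with medians of -0.09 and -0.69, and of the mast cell and basophil genes 6 of 9 and 0 of 6, with medians of 0.24 and -0.25. Megakaryocyte genes summed to 72.6 in young KO against 74.8 in young WT and to 30.7 in old KO against 54.4 in old WT, and mast cell and basophil genes to 560.7 in young KO against 608.2 in young WT and 122.6 in old KO against 278.2 in old WT. B cell genes summed to 8.40 in young KO against 9.79 in young WT and 23.0 in old KO against 44.1 in old WT, with Ms4a1 and Cd22 listed in no library. The sum in old cells rests mostly on Cd79a, at 3.84 in old KO against 23.4 in old WT, and Cd79b, at 10.2 in old KO against 18.2 in old WT. By count 5 of the 8 B cell genes measured in old cells were higher in KO, with a median of 0.42, and those 5 include Pax5 and Ebf1, which were listed in old KO and not in old WT. In young cells the 1 measured B cell gene, Cd79b, was lower in KO. T and NK cell genes summed to 59.2 in young KO against 68.0 in young WT and 59.4 in old KO against 47.8 in old WT, with Cd4 and Cd8a listed in no library, and 2 of 4 measured were higher in young KO and 6 of 7 in old KO. By median the mitosis genes leaned to KO at both ages, while the erythroid and the granulocyte-monocyte lists each changed direction between the ages. The erythroid list was split in old cells, where 8 of 23 genes were higher in KO and 15 were lower. Those 8 genes include every globin gene of the list. As all 23 were higher in young KO, genes picked for being higher in old KO were higher at both ages by that choice. The part of the cell mix in the differences of mitosis genes was not tested.

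**Figure D5:**
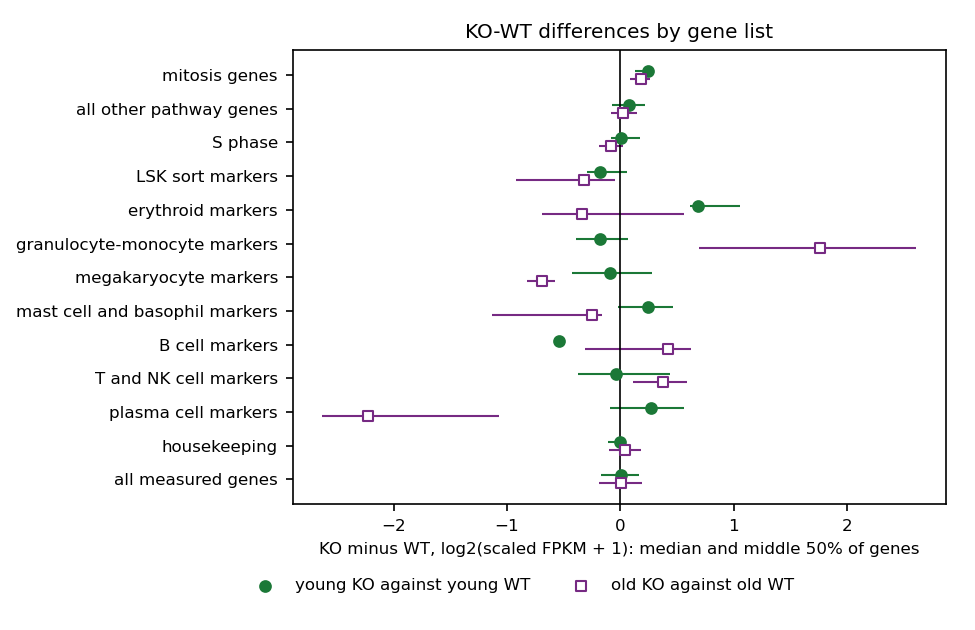
Median (symbol) and middle 50% of genes (line) of the KO minus WT difference on the log2(scaled FPKM + 1) scale for each gene list, in young (filled circles) and old cells (open squares). The mitosis genes sit at 0.24 and 0.18, the erythroid markers at 0.69 and -0.34 and the plasma cell markers in old cells at -2.22.

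Between ages the mitosis genes were more dispersed than between genotypes, and so were all measured genes. Between genotypes the middle 50% of all measured genes ran from -0.167 to 0.166 in young and from -0.19 to 0.193 in old cells. Between ages it ran from -0.225 to 0.246 in WT and from -0.264 to 0.292 in KO. In WT cells 38 of 49 were higher in old than in young, against 49.2% of measured genes, with a median of 0.16, and in KO cells 31 of 49 were higher in old, against 49.8%, with a median of 0.13. By 0.32 or more 14 of 49 were higher and 1 lower in old WT, where 20.2% and 17.4% of measured genes were, and 13 higher and 3 lower in old KO, where 23.4% and 20.4% were. These comparisons share their libraries with the genotype comparisons, and age cannot be told apart from the sex-linked difference between the young and old libraries. With scaling on housekeeping genes the WT median was -0.02 and the KO median -0.14, so the direction between ages depends on the scaling.

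The genes apart in age came from several roles. In 20 genes both old values lay above both young values, among them Mki67, Cenpe, Cenpf, Smc4, Top2a and 5 of the 7 kinesins. Mki67 was 1.64-fold higher in old than in young KO and 1.59-fold higher in old than in young WT, and Cenpe 1.68-fold and 1.83-fold. In 5 genes both old values lay below both young values, namely Ccna2, Ccnb1, Cenpa, Ncapd2 and Ncapg. The margin was narrow for Ccnb1, at 5.84 in old KO against 5.93 in young WT, and for Ncapg, at 6.94 in old KO against 7.01 in young WT. The share of all measured genes with either pattern was not counted. Both counts were made with median-of-ratios scaling alone. Cenpa was lower in old cells by 0.51 in KO and by 0.56 in WT on the log2 scale. Of the 49 genes, 8 overlap another listed gene in the deposited loci, Ccna2, Cdc20, Cdca8, Ncapd2, Ncapg, Kif20a, Nusap1 and Prc1. The sources used here do not say whether strand was used in counting, so their values may include reads of the neighbour. Gm28967, which overlaps Ncapd2, was listed at 50.96 in young KO against 62.2 in young WT and at 26.8 in old KO against 24.5 in old WT.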

How the data were processed

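Total RNA libraries of sorted LSK cells were made with a total RNA-seq kit, per the labels' protocols. The deposited files give 1 FPKM per gene, per the file headers. Named in the submitters' processing notes, without their roles, are StringTie 1.3.0, HISAT2 2.0.4, Trimmomatic, FastQC, CASAVA and Bismark, and the build mm10 (GRCm38). No listed value was below 0.5, so 0.5 stood in for genes absent from a file. The 2 bisulfite samples were not analysed here.

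Libraries were scaled by median-of-ratios over 10939 genes at an FPKM of 1 or more in all 4, with multipliers of 1.02, 0.940, 1.02 and 1.02 for young KO, young WT, old KO and old WT. A gene was measured in a comparison at a scaled value of 1 or more in at least 1 of its 2 libraries, and a pseudocount of 1 was used. Depth was estimated from FPKM times locus length for loci under 1500 bp, of which 62.3%, 61.1%, 67.4% and 71.1% in the same order lay within 0.02 of a whole multiple of 1 step, where chance gives 4%. A fragment was taken as 2 steps, which may understate the depth of the old libraries. No test was made, since each group has 1 library. Whether a library pools several animals is unknown. The scaling and differences were tested on simulated data with known fold changes.

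The mitosis genes and all lists were chosen with earlier results of these data known. The rule for named genes took all 49 mitosis genes and, from the pathway and S phase lists, those at 2-fold and the 2 largest differences in each direction of each list at each age. From the marker lists it took the 2 largest differences, of which Hlf, Ly6a, Hbb-bs, Car1, Chil3, Jchain, Cd79a, Cd79b and Ebf1 are given and the rest stand within their list's sum. Mybl2, Spc24, Pax5, Mad1l1, Cenpp, Kit, Gm28967 and the sex-linked genes fall outside it and were chosen after their values were seen. Alternatives were other scalings, pseudocounts, filters and treatments of unlisted genes. Python 3.11.15, numpy 2.4.6, pandas 2.3.3, scipy 1.17.1 and matplotlib 3.10.9 were used.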

Additional observations from a re-analysis of the deposited data

Results flagged for a closer look

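Among the 49 mitosis genes and the 124 other listed pathway genes, 6 had KO minus WT differences in opposite directions at the 2 ages. Each difference was at least 0.2 in size on the log2 scale. The share of all measured genes with this pattern was not counted, so the 6 are given as single genes only. With 1 library per group the difference between ages was not tested. Hjurp differed by 0.52 in young and -0.25 in old cells, a gap of 0.78, and Aspm by 0.29 and -0.21, a gap of 0.50. Among other pathway genes Casc5, the kinetochore scaffold that recruits Bub1, differed by 0.49 and -0.48, a gap of 0.97, and Mad1l1, which brings Mad2l1 to kinetochores, by 0.44 and -0.36, a gap of 0.80. Foxm1 differed by 0.26 and -0.40, a gap of 0.66, and Cenpp, of the inner kinetochore, by 0.24 and -0.23, a gap of 0.47.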

How the results depend on the processing

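No paired analysis was possible because each group has 1 library. Across 9 alternatives the genotype medians kept their sign, from 0.14 to 0.28 in young and from 0.09 to 0.19 in old cells, and the genes above 0 numbered 38 to 47 and 36 to 45 of 49. Without scaling the young median was 0.14, and in WT the age median was 0.055 with 8 genes higher by 0.32 or more and 2 lower in old WT. With upper-quartile scaling the age medians were 0.05 in both genotypes, with 8 genes higher and 2 lower in old WT. With housekeeping scaling, which moved the median of all measured genes to -0.07 in the old KO, -0.175 in the WT age and -0.265 in the KO age comparison, the old KO median was 0.093 with 1 gene lower. The age medians reversed to -0.018 in WT and -0.144 in KO, with 23 and 16 genes above 0, 6 and 2 genes higher and 4 and 16 lower. These scalings differ from median-of-ratios by a constant per library; beyond that the cause was not tested. With a pseudocount of 5, which shrinks low genes, 6 genes in young KO, 3 in old KO and 7 in old WT against young WT were higher by 0.32 or more, and with 0.1, 2 were lower in old WT. Of 882 single-gene values under an alternative, 22 crossed 0.32 in size and none that had passed it changed sign. Depth limits what can be said of low genes such as Ube2c and Spc25.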
